A study of Homo sapiens with 18 samples.

Results

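The genes described here encode proteins that neutrophils pack into granules: MPO, ELANE, AZU1, PRTN3, CTSG, LYZ, LTF, CAMP and LCN2. They were chosen by function, as granule proteins of immature and mature neutrophils, but with earlier results of these data known. They make up 9 of the 20037 protein-coding genes of chromosomes 1 to 22, X and Y in the RefSeq gene table. AML1-ETO occupancy at these genes was read from lists of CUT&RUN peaks, which mark where an antibody-guided nuclease released DNA from permeabilised cells. A peak was assigned to a gene when at least 1 bp of it lay in the gene body or within 10 kb on either side. Because AZU1, PRTN3 and ELANE lie side by side, the 9 genes form 7 separate windows, and a peak between neighbours can count for more than 1 gene.

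The cells were Kasumi-1, a human acute myeloid leukaemia line in which the t(8;21) translocation joins RUNX1 (AML1) to RUNX1T1 (ETO). All groups carried Flag-tagged AML1-ETO, were transduced, and were sorted as viable GFP+ cells 3 days later. The conditions were control and knockdown (KD) of the microRNA miR-130a, each profiled with an antibody against ETO, the Flag M2 antibody and mouse IgG, in 6 groups of 3 libraries. The control vector was not named in the sources used here. The design asks whether the sites occupied by AML1-ETO change after miR-130a knockdown. All of this comes from 1 engineered line, and no RNA was measured in this series, so expression of the granule genes and the identity of the cells by marker genes were not checked.

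The results come from 9 deposited lists. Of these, 4 hold the anti-ETO and anti-Flag peaks of control and of knockdown cells, and 2 hold the peaks of both antibodies within a condition, called dual-antibody peaks. The other 3 hold the dual-antibody peaks present in both conditions (shared), in control only (control-unique) and in knockdown only (knockdown-unique). The plots show 7 of the lists, without the 2 dual-antibody lists. The single-antibody lists held between 14264 and 25961 peaks. A list stands for a whole group and gives positions without heights, so read depth behind a call is unknown, no spread between the 3 libraries could be computed, and no test over libraries was possible. No IgG peak list was used here, and every count is a description of lists.

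Neutrophils make their granules in waves. Azurophil (primary) granules form first, in promyelocytes, and hold myeloperoxidase (MPO) and the serine proteases and protease relatives neutrophil elastase (ELANE), proteinase 3 (PRTN3), azurocidin (AZU1) and cathepsin G (CTSG). Specific (secondary) granules follow in myelocytes and hold lactoferrin (LTF), the cathelicidin precursor (CAMP) and lipocalin 2 (LCN2), while lysozyme (LYZ) is found in several granule classes. RUNX1, MYB, ETS and C/EBP family factors drive the early genes, C/EBP epsilon is needed for the late ones, and AML1-ETO is known for holding leukaemic cells at an immature myeloid stage.

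Peaks of some list lay within 10 kb of MPO, ELANE, AZU1, PRTN3, CTSG, LYZ, LTF and LCN2, and CAMP had none in any list. No peak of any list touched the gene bodies of CTSG, LYZ or LCN2. A control anti-ETO peak lay at 8 of the 9 genes, against 47.4% of all protein-coding genes. After knockdown, an anti-ETO peak lay at 7 genes, against 53.6% of protein-coding genes. The control anti-Flag list had a peak at 8 genes (background 50%) and the knockdown anti-Flag list at 7 (background 42.1%). The gene that differed between the conditions was CTSG for both antibodies. In gene bodies alone, anti-ETO peaks lay in 2 of the 9 genes in control and 5 in knockdown, against 35.9% and 43.3% of protein-coding genes. Anti-Flag peaks lay in the bodies of 4 genes in control and 5 in knockdown, against 38.7% and 32.0%.

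Both antibodies together placed a dual-antibody peak at 7 genes in control (background 43.7%) and at 7 in knockdown (background 39.3%), but not at the same 7. CTSG had a dual-antibody peak in control and none in knockdown, a pattern shared by 7.64% of protein-coding genes. AZU1 had none in control and 2 in knockdown. Any number of dual-antibody peaks in knockdown with none in control was found at 3.25% of protein-coding genes. Shared peaks lay at 6 genes (background 35.0%), control-unique peaks at 2 (background 16.9%) and knockdown-unique peaks at 5 (background 18.4%). The 5 genes with a knockdown-unique peak were ELANE, AZU1, PRTN3, LTF and LCN2, of which the first 3 share a cluster and some of their peaks.

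**Figure D1:**
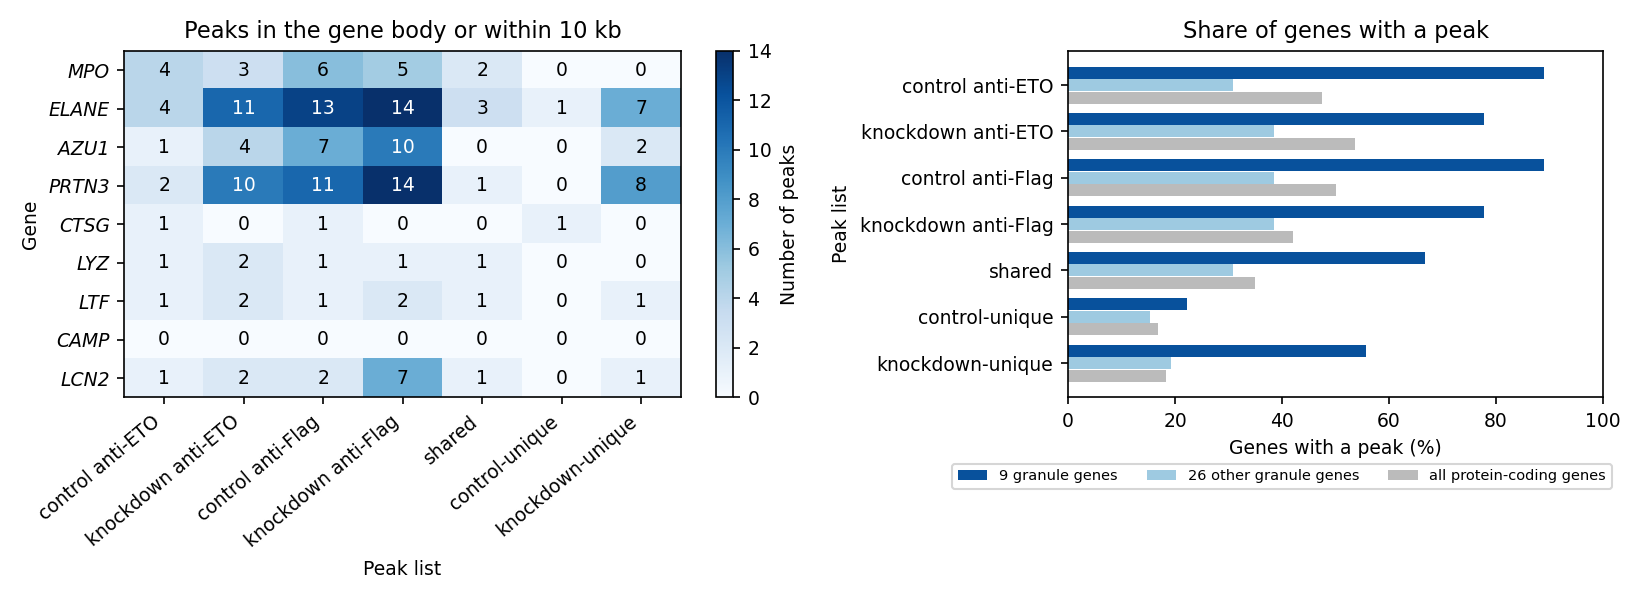
The left panel gives the number of peaks in the body or within 10 kb of each gene (rows) in each of the 7 lists (columns), and the right panel the share of genes in percent with a peak for the 9 granule genes, 26 other granule genes and all protein-coding genes. ELANE and PRTN3 reach 14 peaks in the knockdown anti-Flag list, and CAMP stays at 0 throughout. The knockdown-unique list has a peak at 55.6% of the 9 genes against 18.4% of protein-coding genes. Of the genes with such a peak, ELANE, AZU1 and PRTN3 share a cluster in the first 2 Mb of chromosome 19. In that stretch 55.4% of protein-coding genes had a knockdown-unique peak.

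ELANE and PRTN3 had the most peaks of the 9 genes in 3 of the 4 single-antibody lists, and in the control anti-ETO list ELANE and MPO both had 4. ELANE had 4 control anti-ETO peaks and 11 knockdown anti-ETO peaks, and PRTN3 had 2 and 10. In the anti-Flag lists ELANE had 13 peaks in control and 14 in knockdown, and PRTN3 had 11 and 14. AZU1 had 1 and 4 anti-ETO peaks and 7 and 10 anti-Flag peaks. Many of these peaks counted for more than 1 gene. Counted once, the joined window of AZU1, PRTN3 and ELANE held 5 and 15 anti-ETO peaks and 20 and 24 anti-Flag peaks, in control and knockdown. The whole lists also differed in length: anti-ETO had 14264 peaks in control and 22594 in knockdown (a ratio of 1.58), and anti-Flag had 23162 and 25961 (1.12). At MPO the numbers were 4 and 3 for anti-ETO and 6 and 5 for anti-Flag. CTSG, LYZ and LTF had at most 2 peaks in any list. The median over the 9 genes was 1.0 peak in the control anti-ETO list and 2.0 in the knockdown anti-ETO list, against 0.0 and 1.0 over all protein-coding genes. For anti-Flag it was 2.0 in control and 5.0 in knockdown, against 1.0 and 0.0.

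MPO makes hypochlorous acid from hydrogen peroxide and chloride and is the classical marker of the myeloid lineage. Its locus was occupied in both conditions, and no control-unique or knockdown-unique peak lay within 10 kb. With flanks of 25 kb, MPO had a knockdown-unique peak. MPO lies on chromosome 17 from 58269855 to 58280935 (GRCh38) and is transcribed toward lower coordinates, so its start is the higher end. In control, an anti-ETO peak of 2481 bp (58280578 to 58283058) and an anti-Flag peak of 2761 bp (58280395 to 58283155) covered this end. In knockdown, the anti-ETO peak there measured 3414 bp (58279732 to 58283145) and the anti-Flag peak 2604 bp (58280621 to 58283224). These 4 peaks were broad for their lists: each was wider than 98.9% to 99.4% of the other peaks in the same list.

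Further from MPO, a broad peak was called in all 4 lists, and its nearer edge lay between 2720 and 3255 bp beyond the gene's start. It measured 1513 bp in control anti-ETO (58284190 to 58285702), 2023 bp in knockdown anti-ETO (58283655 to 58285677), 1837 bp in control anti-Flag (58283987 to 58285823) and 2202 bp in knockdown anti-Flag (58283669 to 58285870). The knockdown interval was the longer for each antibody. The control anti-Flag list had a further peak of 308 bp (58283376 to 58283683) between this one and the gene, 2441 bp from the start. The authors' shared list held 2 intervals at MPO, 58279527 to 58283224 and 58283655 to 58285870. A control anti-ETO peak (58279527 to 58279852) and a separate control anti-Flag peak (58279624 to 58280134) lay inside the gene next to the start peak, and the knockdown anti-ETO list had a single interval across these sites. The lower peak count of MPO in knockdown anti-ETO therefore includes the joining of neighbouring calls: anti-ETO peaks covered 4768 bp of the window in control and 5643 bp in knockdown. Narrow peaks inside the neighbouring lactoperoxidase gene LPO (58266991 to 58267438 in control and 58266815 to 58267020 in knockdown, both anti-ETO) also fell in the window.

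**Figure D2:**
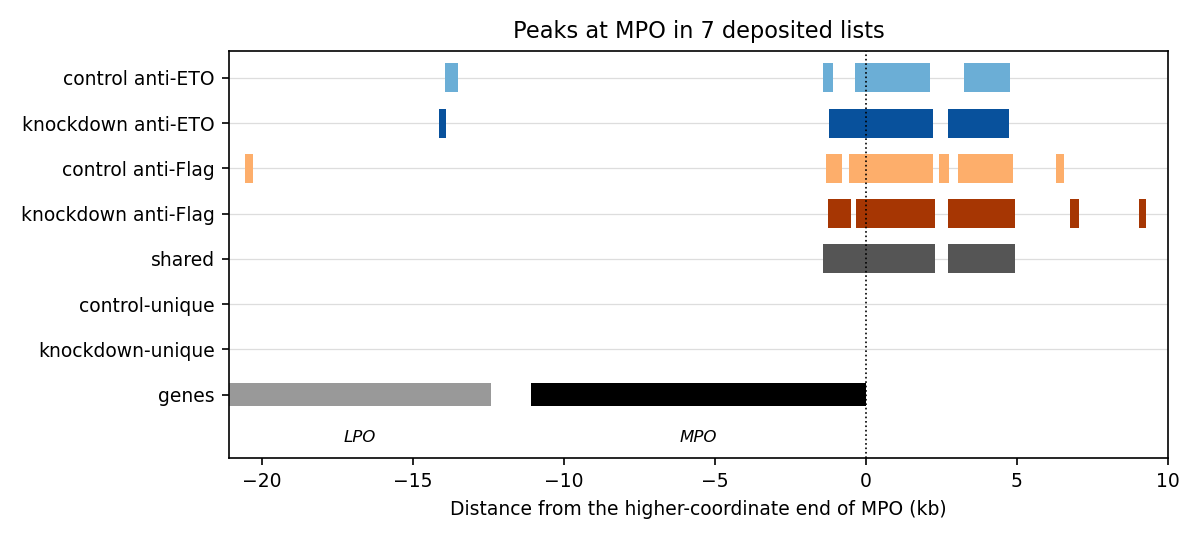
Peak intervals at MPO in each of the 7 lists (rows), with distance in kb from the higher-coordinate end of the gene on the x axis, and gene bodies at the bottom (MPO in black, LPO in grey). Broad peaks over the dotted line and a further block ending near 5 kb appear in all 4 single-antibody lists and in the shared list, and the control-unique and knockdown-unique rows are empty.

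AZU1, PRTN3 and ELANE form a tandem cluster of serine protease genes on chromosome 19, followed by CFD, which encodes complement factor D and was not chosen as a member. The gaps are 8980 bp between AZU1 and PRTN3, 4127 bp between PRTN3 and ELANE, and 3420 bp between ELANE and CFD. In the joined window of 48407 bp, 9 of the 11 knockdown-unique peaks of all 9 genes were found, together with 1 control-unique and 3 shared peaks. The control anti-ETO list had 5 peaks in this window and the knockdown anti-ETO list had 15. The anti-Flag lists had 20 and 24 peaks. In the whole lists, too, the knockdown list was the longer for each antibody, and by more for anti-ETO (ratios of 1.58 and 1.12, as above).

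AZU1 encodes azurocidin, a protease relative that has lost its catalytic activity and kills bacteria by binding them. Its body (827837 to 832018) had no control anti-ETO call. In knockdown, a narrow anti-ETO peak of 181 bp (829538 to 829718) lay in the gene. Anti-Flag was called in the gene in both conditions, at 830113 to 830530 in control and at 830139 to 830527 in knockdown. A further knockdown anti-Flag peak in the gene, of 171 bp (831269 to 831439), had no control call. A broad knockdown anti-Flag peak of 1616 bp (826145 to 827760) stopped short of the gene's start with 76 bp between them, and the other 3 single-antibody lists had no call there. The promoter sequence is shown because 174 of its 250 bases lay in that peak. Across all genes, 16.2% of 300-base promoter windows overlapped a knockdown anti-Flag peak. The sequence (RefSeq, GRCh38.p14, chr19:827587-827836, plus strand, 5′ to 3′, ending at the base before the start) has the bases under the knockdown anti-Flag peak in capitals.
AZU1 promoter: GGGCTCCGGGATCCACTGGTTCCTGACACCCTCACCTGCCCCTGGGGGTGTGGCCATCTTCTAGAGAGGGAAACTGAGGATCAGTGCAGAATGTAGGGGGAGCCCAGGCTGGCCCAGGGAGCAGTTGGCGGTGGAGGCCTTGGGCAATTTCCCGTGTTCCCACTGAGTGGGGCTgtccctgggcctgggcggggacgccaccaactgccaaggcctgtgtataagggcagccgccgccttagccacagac

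Beyond the end of AZU1, the interval 833007 to 834596 (1590 bp) was knockdown-unique. Anti-Flag called it in both conditions, with 636 bp in control (833393 to 834028) and 1590 bp in knockdown. Anti-ETO called it in knockdown alone (833322 to 834098, 777 bp). This site lay in the windows of both AZU1 and PRTN3.

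PRTN3 encodes proteinase 3, the main autoantigen of granulomatosis with polyangiitis. Its 15 merged regions held 8 knockdown-unique peaks, 1 shared peak and no control-unique peak. Only 29 protein-coding genes (0.145%) had 8 or more knockdown-unique peaks, and ELANE with 7 was among 51 genes (0.255%) with at least that many. The windows of PRTN3 and ELANE had 6 of these peaks in common. The shared peak lay in the gene at 843098 to 843578, where both antibodies called narrow intervals of 188 to 385 bp in both conditions.

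The start of PRTN3 (840999) showed how a knockdown-unique peak can rest on the rule for joining antibodies. In knockdown, anti-Flag called a single interval of 1667 bp (839438 to 841104) and anti-ETO called 839471 to 840278 and 840533 to 841081. In control, both antibodies also had calls there: anti-Flag at 839563 to 839930 and 840191 to 840612, and anti-ETO at 840576 to 840901. The control anti-ETO peak and the nearer control anti-Flag peak overlapped by 37 bp. All 12247 control and all 13712 knockdown dual-antibody intervals of the deposited lists contained an anti-ETO and an anti-Flag peak with at least 100 bp in common. The site was therefore called by all 4 lists and still counted as knockdown-unique. Of the 4617 knockdown-unique peaks, 46 (0.996%) overlapped a control call of each antibody. If 1 bp in common were enough, the site would count as shared, which would also give AZU1, whose window reaches it, a shared peak.

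The promoter sequence of PRTN3 is shown because the extent of its calls differed between the conditions. All 250 bases before the start lay in a knockdown anti-ETO and a knockdown anti-Flag peak. In control, 153 of them lay in the anti-ETO peak, in capitals here, and 0 in an anti-Flag peak. A knockdown-unique peak overlapped 2.13% of all promoter windows, and a control anti-ETO peak 21.9%. The sequence is from RefSeq, GRCh38.p14, chr19:840749-840998, plus strand, 5′ to 3′.
PRTN3 promoter: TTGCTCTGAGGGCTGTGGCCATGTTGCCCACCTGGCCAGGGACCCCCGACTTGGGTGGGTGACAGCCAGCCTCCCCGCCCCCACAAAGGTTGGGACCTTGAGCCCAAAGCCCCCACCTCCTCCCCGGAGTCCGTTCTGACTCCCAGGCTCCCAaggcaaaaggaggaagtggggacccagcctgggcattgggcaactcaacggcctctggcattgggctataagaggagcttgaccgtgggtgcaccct

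ELANE encodes neutrophil elastase, whose mutations cause cyclic and severe congenital neutropenia. At its start (852303, transcribed toward higher coordinates) the interval 851802 to 852459 was knockdown-unique. Anti-Flag called the start in both conditions, with 224 bp in control (852230 to 852453) and 547 bp in knockdown (851913 to 852459). Anti-ETO called it in knockdown (851802 to 852458, 657 bp), and no control anti-ETO peak lay in the gene. The next knockdown-unique peaks, 850476 to 851210 before the gene and 856969 to 857453 after it, had the same arrangement: an anti-Flag call in both conditions and an anti-ETO call in knockdown. So did the knockdown-unique peaks at 844649 to 844936 in PRTN3 and at 863649 to 864241, just past the end of CFD.

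Of the 3 shared peaks in the ELANE window, 2 lay at CFD and the other was the one in PRTN3 (843098 to 843578). A broad interval across the start of CFD (858391 to 861075) was called in all 4 lists, where anti-ETO peaks were 2321 bp wide in control and 2257 bp wide after knockdown. A second shared interval lay inside CFD at 861806 to 862283. The single control-unique peak of the cluster (862552 to 862866) was also in CFD, and it had a knockdown anti-ETO call (862566 to 862866) and no knockdown anti-Flag call. Within ELANE itself, anti-Flag called 854136 to 854635 in control and 854889 to 855148 in knockdown, intervals that did not overlap each other.

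**Figure D3:**
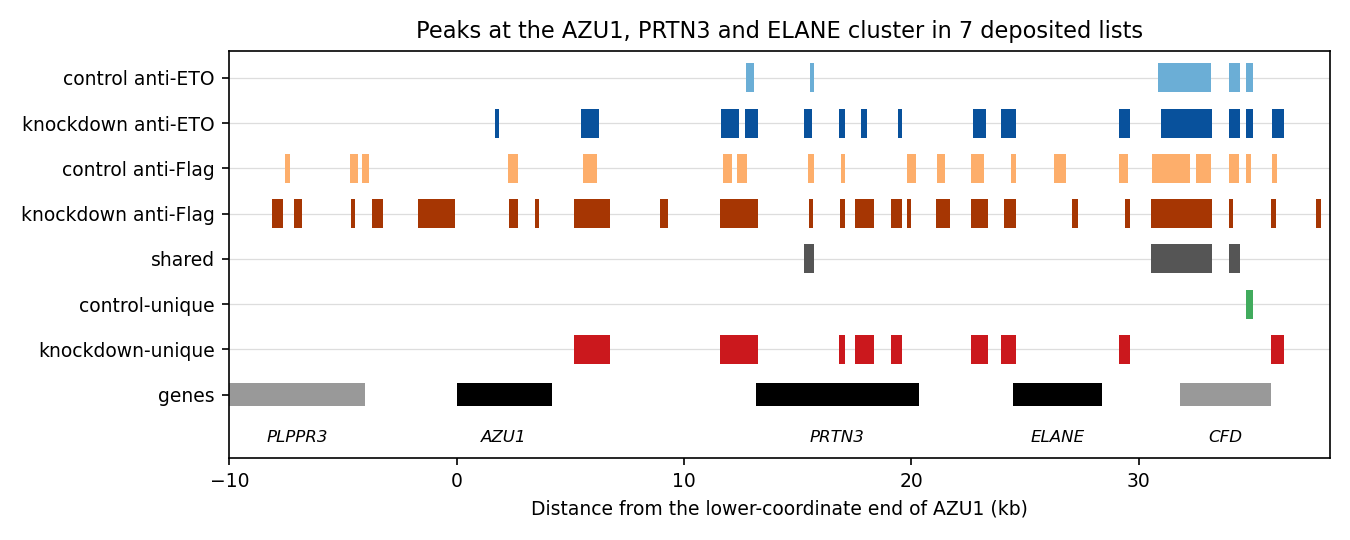
Peak intervals in the joined AZU1, PRTN3 and ELANE window in each of the 7 lists (rows). The x axis gives the distance in kb from the lower-coordinate end of AZU1. Gene bodies are at the bottom (AZU1, PRTN3 and ELANE in black, PLPPR3 and CFD in grey). Control anti-ETO shows 5 peaks, 3 of them at CFD, where knockdown anti-ETO shows 15 spread over the cluster, and the knockdown-unique row shows 9.

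Set against the other condition, 7 of the 11 knockdown-unique peaks of the 9 genes overlapped a control anti-Flag peak alone, 0 a control anti-ETO peak alone, 1 both, and 3 neither. In the whole knockdown-unique list those shares were 55.1%, 5.83%, 0.996% and 38.1%. The granule genes' peaks were thus mostly of the kind that is also most common in the list. The 3 without a control call were 2 sites inside PRTN3 (845374 to 846185 and 846942 to 847431) and 1 inside LTF.

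The cluster lies in the first 2 Mb of chromosome 19, where calls were dense. That stretch held 124 knockdown-unique peaks (2.69% of the list) and 9 control-unique peaks (0.294%). Of its 112 protein-coding genes, 55.4% had a knockdown-unique peak in the body or within 10 kb. The median there was 1.0 knockdown-unique peak per gene, below the 2, 8 and 7 of AZU1, PRTN3 and ELANE. For anti-ETO the median per gene in this stretch was 1.0 in control and 4.0 in knockdown, and for anti-Flag 4.0 and 5.5, so knockdown medians above control medians were not particular to the granule genes.

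CTSG encodes cathepsin G, a serine protease of the same granules, on chromosome 14 from 24573518 to 24576250 and transcribed toward lower coordinates. It was the member with control calls of both antibodies and no knockdown call of either within 10 kb. The control anti-ETO peak spanned 198 bp (24576473 to 24576670) and the control anti-Flag peak 209 bp (24576462 to 24576670). The deposited control-unique peak had the anti-Flag bounds and began 212 bp before the start of the gene. Both peaks were narrow: 10.1% of control anti-ETO and 14.4% of control anti-Flag peaks were narrower. Calls in both control lists and in neither knockdown list were found at 171 protein-coding genes (0.853%). In the whole control-unique list, 20.2% of peaks had no knockdown call of either antibody, while 74.7% had an anti-ETO call alone.

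The promoter of CTSG is shown because the control-unique peak reached into it. A control-unique peak overlapped 4.23% of all promoter windows. The 39 bases under the control anti-Flag peak, in capitals, lie at the end far from the start. The sequence is from RefSeq, GRCh38.p14, chr14:24576251-24576500, minus strand, 5′ to 3′, ending at the base before the start.
CTSG promoter: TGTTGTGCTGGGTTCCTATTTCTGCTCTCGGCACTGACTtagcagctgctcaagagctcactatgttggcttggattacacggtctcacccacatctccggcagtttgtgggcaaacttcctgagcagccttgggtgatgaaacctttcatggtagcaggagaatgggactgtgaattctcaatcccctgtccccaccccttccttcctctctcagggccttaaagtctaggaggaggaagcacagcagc

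LYZ encodes lysozyme, which cuts bacterial cell wall peptidoglycan. Its body (chromosome 12, 69348381 to 69354234) had no peak in any list. The shared peak counted for it (69359536 to 69360445) covered the lower end of the neighbouring gene YEATS4, whose body begins at 69359743. The widths there were 696 bp for control anti-ETO, 633 bp for knockdown anti-ETO, 852 bp for control anti-Flag and 228 bp for knockdown anti-Flag. A knockdown anti-ETO peak of 317 bp (69357716 to 69358032) lay between both genes, 3482 bp beyond LYZ.

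LTF encodes lactoferrin, an iron-binding protein of specific granules, on chromosome 3 from 46435645 to 46485234. It had a shared site before the outermost of its 3 annotated starts and a knockdown-unique site inside the gene. The shared interval (46488605 to 46489462) began 3371 bp beyond the higher end, which is that outermost start. The promoters of the other starts (46464906 to 46465155 and 46463655 to 46463904) lie inside the gene body, much further from this interval. The shared interval was called with 200 bp and 517 bp by anti-ETO and with 659 bp and 510 bp by anti-Flag, in control and knockdown respectively. The knockdown-unique interval (46442543 to 46442964) was called with 422 bp by anti-ETO and 385 bp by anti-Flag, and neither antibody had a control call there. It lay 6898 bp inside the gene from the lower end, where the gene stops. None of the 3 annotated LTF promoter windows overlapped a peak of any list.

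LCN2 encodes lipocalin 2, which binds bacterial siderophores, on chromosome 9 from 128149453 to 128153453. No peak in any list lay in its body or over its promoter window. The shared peak (128159275 to 128160096) and the knockdown-unique peak (128160291 to 128160834) counted for it lay at the lower end of BBLN, whose body begins at 128160265. The knockdown-unique peak had a control anti-Flag call of 509 bp (128160315 to 128160823) and no control anti-ETO call. Anti-Flag placed 7 peaks in the window in knockdown and 2 in control. The knockdown peaks 128159280 to 128159613 and 128159879 to 128160050 overlapped a single control anti-Flag peak (128159284 to 128160096). The higher count therefore includes the splitting of a call. Anti-Flag peaks covered 1322 bp of the window in control and 2283 bp in knockdown. In knockdown, 2 of the 7 lay on the other side of LCN2 (128140070 to 128140810 and 128142134 to 128142303), where no other list had a call.

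CAMP encodes the precursor of the antimicrobial peptide LL-37 and lies on chromosome 3 from 48223495 to 48225485. It had 0 peaks in all 9 deposited lists, a state shared by 41.8% of protein-coding genes for the 4 single-antibody lists. Peaks present in all 4 single-antibody lists at 7 of the 9 genes compare with 37.2% of protein-coding genes.

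**Figure D4:**
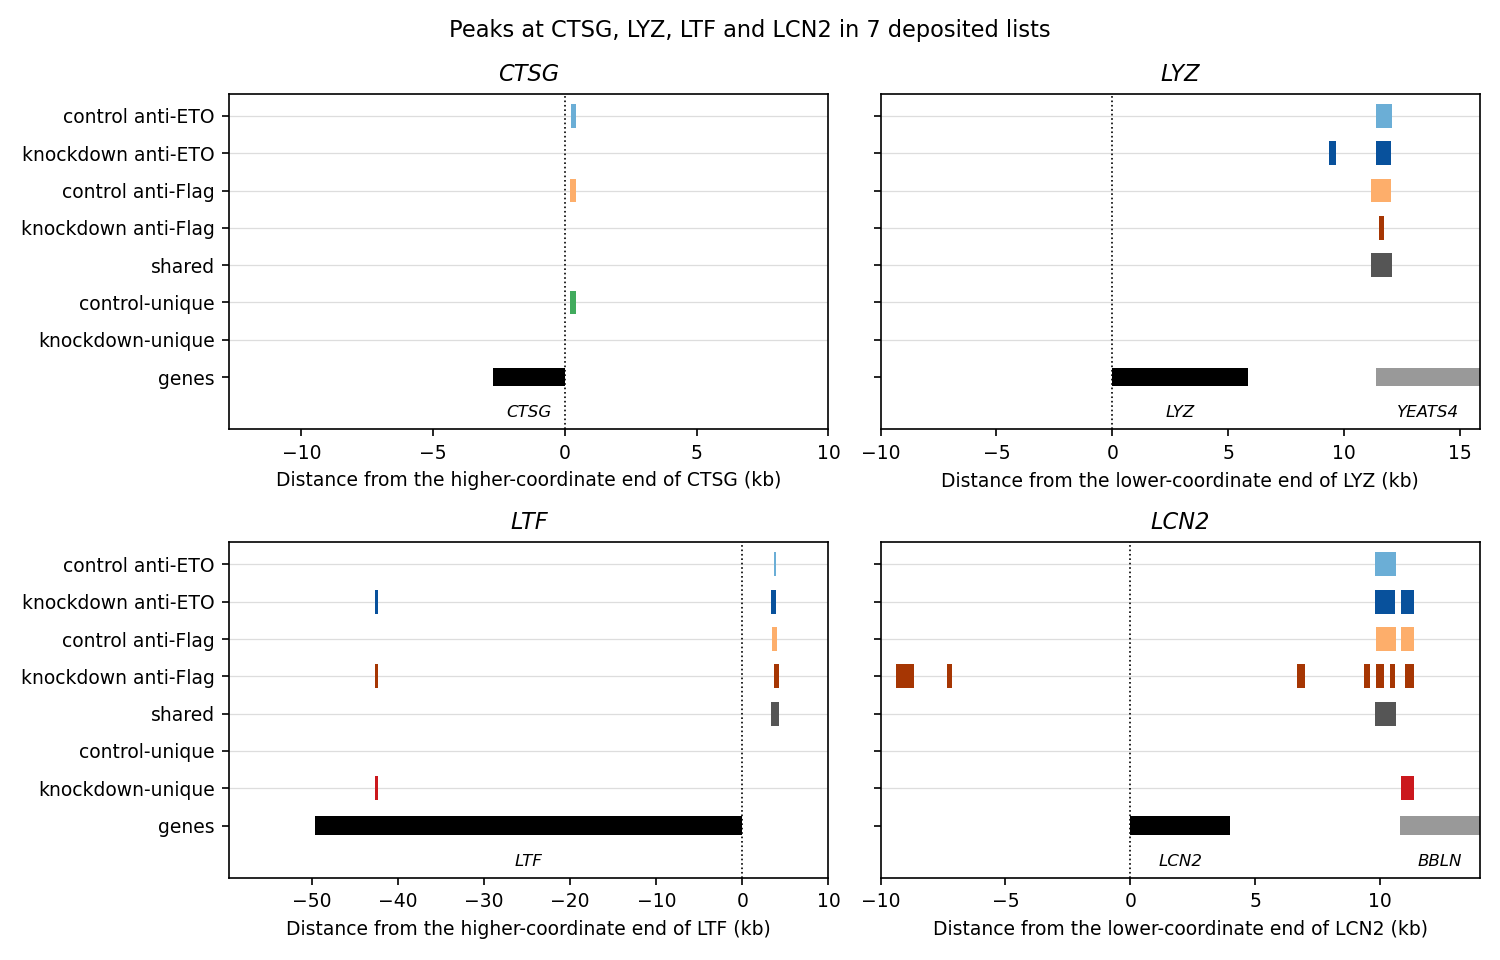
Peak intervals at CTSG, LYZ, LTF and LCN2 in each of the 7 lists (rows), with distance in kb from the end of each gene at the dotted line on the x axis, and gene bodies at the bottom (granule genes in black, YEATS4 and BBLN in grey). CTSG shows calls in the control rows only. The peaks of the LYZ and LCN2 windows sit at the neighbouring genes, except for 1 between LYZ and YEATS4 and several knockdown anti-Flag peaks in the LCN2 window.

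Merging the 4 single-antibody lists gave 47 regions in the windows of the 9 genes, of 35622 in the genome. Of the 47, 9 were called in all 4 lists (19.1%), against 24.8% of all regions. The most frequent class was a knockdown anti-Flag call alone, with 14 regions (29.8%, against 22.3% of all regions). The class with anti-Flag in both conditions and anti-ETO in knockdown held 7 regions (14.9%, against 7.29%), 6 of them in the chromosome 19 cluster. Of the 9 regions called in all 4 lists, 3 overlapped the body of MPO or PRTN3, and 2 lay outside genes with MPO or LTF nearest. The other 4 lay in or nearest to CFD, YEATS4 and BBLN, which are not among the 9 genes. CFD is among the further granule genes counted below. For LYZ, LCN2, AZU1 and ELANE, the regions called in all 4 lists lay at neighbouring genes: YEATS4 for LYZ, BBLN for LCN2, PRTN3 for AZU1, and PRTN3 and CFD for ELANE.

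Further genes of granule proteins were counted in the same way. Their list, too, was chosen with earlier results of these data known, so its contrast with the 9 genes is not a blind one. Of 26 further granule genes, 8 had a control anti-ETO peak and 10 a knockdown anti-ETO peak, and 10 had an anti-Flag peak in each condition. These shares of 30.8% and 38.5% lay below those of all protein-coding genes. Calls in all 4 lists were found at 8 of the 26 genes, and no call in any at 14, against 37.2% and 41.8% of protein-coding genes. A shared, control-unique or knockdown-unique peak was found at 9 of them. These were BPI, CTSC, CFD, RNASE2 and RNASE3 among azurophil and related genes, and MMP9, MMP25, CYBA and ITGAM among genes of later granules. By list, 30.8% of the 26 genes had a shared, 15.4% a control-unique and 19.2% a knockdown-unique peak. The shares of all protein-coding genes were 35.0%, 16.9% and 18.4%. All shared and unique peaks of CFD also counted for ELANE. The genes without a call included the alpha-defensin genes DEFA1, DEFA3 and DEFA4, the first pair near-identical copies to which short reads cannot be assigned with certainty. They also included MMP8, OLFM4, CRISP3, PTX3, CHIT1, TCN1, HP, ARG1, CEACAM8, ORM1 and FCN1, which were listed together as genes of later (specific and gelatinase) granules.

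Among the other granule genes, BPI, a protein that binds bacterial lipopolysaccharide, had 2 shared peaks, and CTSC, the protease that activates the granule serine proteases, had 1. MMP9 (gelatinase B) had 1 shared and 2 control-unique peaks. ITGAM, the CD11b integrin chain, had 1 shared, 2 control-unique and 1 knockdown-unique peak. RNASE2 and RNASE3 encode related ribonucleases: RNASE2 had 2 shared peaks and 1 control-unique peak, and RNASE3 had 2 knockdown-unique peaks. MMP25, a membrane-bound metalloprotease, had 1 shared and 3 knockdown-unique peaks, and CYBA, a subunit of the NADPH oxidase, had 1 shared and 1 knockdown-unique peak. BPI, CTSC, CFD, RNASE2 and MMP9 were the first 5 of the 8 genes called in all 4 lists, as 7 of the 9 members were.

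Promoter sequences for 6 of the 9 genes (LTF with 3 annotated starts, so 8 sequences) were searched on both strands for short motifs of factors that act at these genes. A match is a string of letters in the 300-base window and shows no binding. Positions count back from the start and give the first base of a match. The RUNX core TGTGGT was found in 2 of the 8 sequences, LCN2 and the third LTF promoter, and in 13.1% of all 35116 promoter windows. Its variant TGCGGT was found in the second LTF promoter and in 7.29% of all windows. The 3 printed promoters, of AZU1, PRTN3 and CTSG, held neither string. GGAA, the ETS core, was in all 8 and in 95.5% of all windows. AACTG, a MYB core, was in 3 (LTF, CTSG and AZU1, against 39.7%), and the C/EBP half-site GCAAT in 3 (CAMP, LCN2 and AZU1, against 24.5%). AZU1 held AACTG 3 times and GCAAT once, at position -107 from the start, within the stretch under its knockdown anti-Flag peak.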

How the data were processed

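CUT&RUN libraries of Kasumi-1 cells (18 libraries, 200000 sorted cells per condition, planned at about 40 M reads of 75 bp from both ends, per the labels' protocols) were deposited as 9 interval lists with 3 columns: chromosome, start and end, with no score. The submitters' processing notes name fastp 0.19.5, Bowtie2 2.3.5, MACS2 2.2.5 and HOMER 4.8, and the builds hg38 and sacCer3, with no role or order. The peak threshold, the use of the IgG libraries and the handling of replicates are not given in the sources used here. A looser threshold or deeper libraries can lengthen a list and so add condition-unique peaks. Whether either differed between the conditions was not tested. No list names a replicate, so each stands for its group.

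Gene positions and promoters (250 bases before to 50 after a start) came from RefSeq, GRCh38.p14. All 9 members and 26 of 26 other granule genes matched by symbol, and 6 members had a promoter sequence. Strands of MPO and ELANE are textbook knowledge. Exons and introns were not told apart. Starts are printed counting from 1. Merged regions join intervals of the 4 single-antibody lists that overlap by at least 1 bp. Overlaps were computed in Python 3.11.15 with numpy 2.4.6 and pandas 2.3.3, figures with matplotlib 3.10.9. The functions were tested on simulated data, with 5 of 5 checks giving the planted answer. No test was run.

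Of the other granule genes, those with a shared or unique peak and 5 with the members' commonest call pattern were named by rule, and the rest and the neighbours after their values were seen. Members and lists were chosen with earlier results of these data known. Alternatives were other windows, peak centres, wider peaks, lists of equal length, rebuilt lists and other background genes.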

Additional observations from a re-analysis of the deposited data

How the results depend on the processing

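Of 39 alternative counts over the 9 genes, 30 stayed within 1.5 times the count given above and 9 did not. Some of the 30 could not have moved. The control anti-ETO list already had 14264 peaks, so lists of equal length left it unchanged. Flanks of 25 kb can only add genes, and the single-antibody counts of 7 or 8 cannot pass 9. The tally is therefore no measure of robustness. With gene bodies only, the number of genes with a peak was 2 for control anti-ETO (MPO and PRTN3), 4 for control anti-Flag, 2 for shared peaks, 0 for the control-unique list and 3 for the knockdown-unique list (ELANE, PRTN3 and LTF). It was 5 for each knockdown single-antibody list, where the counts with 10 kb were 8 in control and 7 in knockdown for each antibody. The share of all protein-coding genes with a peak in the body was 35.9% and 43.3% for anti-ETO and 38.7% and 32.0% for anti-Flag, in control and knockdown. With the wider 50% of each list the number was 4 for control anti-ETO, 2 for shared and 0 for control-unique peaks. With the 4 single-antibody lists shortened by width to 14264 peaks each, 5 regions were called in all 4 lists in place of 9. With 25 kb flanks CAMP gained calls in 3 of the 4 single-antibody lists, and MPO and CAMP gained a knockdown-unique peak (7 genes in all), while CTSG still had no call in either knockdown list. Rebuilding the derived lists with an overlap of at least 1 bp, chosen after the data were seen, gave AZU1 a shared peak, 7 genes in all. Gene-body shares of all protein-coding genes are given for the single-antibody lists only. The other settings of this paragraph have no share over all genes or regions beside them. Whether their counts moved with the background was therefore not tested.

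The background share of protein-coding genes depended on the genes taken. With genes no longer than the longest member it was 44.6% for knockdown anti-Flag, 36.4% for shared peaks, 15.7% for the control-unique list and 20.9% for the knockdown-unique list. On chromosome 19 alone, added after the data were seen, it was 63.0% for control anti-ETO, 73.3% for knockdown anti-ETO, 70.6% for control anti-Flag, 70.2% for knockdown anti-Flag, 53.6% for shared peaks, 21.8% for the control-unique list and 43.2% for the knockdown-unique list. No replicate could be left out, since each list stands for its whole group. No paired analysis was possible because the lists carry no replicate numbers. Without read numbers, narrow calls such as those at CTSG cannot be placed relative to the peak threshold.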
